A study of Mus musculus with 15 samples.

Results

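Epithelial innate defence genes are genes with which lining cells detect microbes or act against them. Both the set examined here and the gene lists below were chosen with earlier results of these data known, so their counts are descriptive. The set holds 8 genes chosen by name: the Toll-like receptors Tlr2, Tlr3 and Tlr4, the co-receptor Cd14, the secreted and transport proteins Lcn2 and Pigr, and the complement genes C3 and Cfb. Of these, 7 had a probe set assigned to that gene alone, out of 19938 genes with such a probe set on the array. C3 was not matched to one and was not analysed here. All 7 measured genes passed the filter on dim signal, an intensity above 97.8 in at least 3 of 15 arrays, as did 16883 of the 19938 genes. Pigr and Tlr4 passed through the 6 arrays of p23 cells alone, so a difference between ages was built into their passing.

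The arrays measured RNA from cells of mouse pancreas sorted by a green fluorescent reporter, in 5 groups of 3 arrays. Cells with high GFP from Sox9-EGFP mice (Sox9-GFP+) were collected on embryonic days e10.5 and e15.5 and on postnatal day p23. Cells with high GFP from Ngn3-EGFP mice (Ngn3-GFP+) were collected at e15.5, and cells without GFP from Sox9-EGFP pups (GFP-) at p23. All groups came from matings of reporter males, Sox9-EGFP or Ngn3-EGFP, to CD1 females, and no group was treated. Sox9 marks the multipotent progenitors of the embryonic pancreas and, after birth, mainly duct cells, while Ngn3 (Neurog3) marks endocrine progenitors. Several animals were pooled for each sort, so p-values measure the spread between pooled arrays and not between animals. Comparisons that use the same arrays are not independent of each other: the Sox9-GFP+ e15.5 arrays enter 3 of the 5 group comparisons and the Sox9-GFP+ p23 arrays also enter 3.

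Toll-like receptors recognise molecules shared by many microbes and signal through the adaptors Myd88 and Ticam1 to the transcription factor NF-kB and to interferon factors. Tlr4 binds bacterial lipopolysaccharide with its partner Ly96, after Lbp and Cd14 have handed the molecule over. Tlr2 recognises bacterial lipopeptides together with Tlr1 or Tlr6, and Tlr3 recognises double-stranded RNA. Lcn2, lipocalin 2, withholds iron from bacteria by binding their siderophores, and Pigr, the polymeric immunoglobulin receptor, carries IgA through epithelial cells to the lumen. Cfb, factor B, forms the C3 convertase of the alternative complement pathway with C3b, a fragment of C3. The ducts of the pancreas open into the gut, and duct epithelium is one of the linings in which such genes are known to be expressed.

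The promoters of 4 of the measured genes are shown because the genes of NF-kB regulation rose at the same age as the defence genes. Those of Cd14, Tlr4 and Cfb are not shown, so no share of defence genes with a motif can be read from the 4. They are RefSeq sequences of build GRCm38.p6, from 250 bases before to 50 bases after the transcript start, 5′ to 3′ on the strand of the gene. Capitals mark matches, on either strand, to a kappa B motif (GGGA, then 4 bases of any kind, then CC) or a C/EBP motif (TTGCNNAA).
Lcn2, chr2:32387690-32387989, minus strand: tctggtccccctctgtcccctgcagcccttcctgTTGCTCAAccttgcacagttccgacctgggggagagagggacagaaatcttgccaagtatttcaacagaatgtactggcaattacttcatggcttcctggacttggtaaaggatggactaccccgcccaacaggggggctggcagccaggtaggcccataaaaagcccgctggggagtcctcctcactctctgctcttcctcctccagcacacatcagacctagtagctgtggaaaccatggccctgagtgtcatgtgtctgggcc
Pigr, chr1:130826434-130826733, plus strand: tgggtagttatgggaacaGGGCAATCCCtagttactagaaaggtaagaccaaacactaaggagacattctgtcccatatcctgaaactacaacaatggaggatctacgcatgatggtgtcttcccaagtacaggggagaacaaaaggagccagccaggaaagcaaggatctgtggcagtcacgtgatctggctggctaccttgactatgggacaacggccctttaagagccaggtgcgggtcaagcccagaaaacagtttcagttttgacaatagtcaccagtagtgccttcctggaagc
Tlr2, chr3:83841559-83841858, minus strand: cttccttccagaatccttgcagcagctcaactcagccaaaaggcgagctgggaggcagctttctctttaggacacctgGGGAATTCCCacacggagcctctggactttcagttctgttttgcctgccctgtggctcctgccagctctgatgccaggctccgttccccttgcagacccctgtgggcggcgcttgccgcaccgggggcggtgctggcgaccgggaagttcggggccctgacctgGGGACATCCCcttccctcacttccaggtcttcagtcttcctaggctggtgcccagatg
Tlr3, chr8:45410331-45410630, minus strand: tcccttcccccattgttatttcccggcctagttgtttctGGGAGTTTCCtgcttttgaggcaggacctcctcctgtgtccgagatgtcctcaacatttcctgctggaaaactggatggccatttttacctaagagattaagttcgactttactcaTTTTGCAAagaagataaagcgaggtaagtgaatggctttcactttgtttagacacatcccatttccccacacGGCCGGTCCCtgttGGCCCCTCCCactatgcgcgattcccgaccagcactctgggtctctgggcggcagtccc
The kappa B motif occurred once in the Pigr window, at -232 from the start, at -172 and -8 in Tlr2, and at -211, -23 and -9 in Tlr3. The Lcn2 window held no kappa B match and a C/EBP match at -216, and the Tlr3 window held a C/EBP match at -95. Of 32851 mouse promoter windows of this length, 20.7% held the kappa B motif and 10.8% the C/EBP motif. No capital lies in more than 1 motif. An interferon element (GAAA, 2 bases of any kind, GAAA), present in 3.44% of the windows, and a TATA box (TATAAA), present in 13.6%, matched none of the 4. A match in letters is a description of the sequence and not evidence of binding.

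The sorts were checked on marker genes, on the scale log2(intensity + 16) that is used for all levels and differences below. On this scale the filter lies at 6.83, and a difference of 1 doubles the offset signal. Krt19, a keratin of duct cells, was 11.91 ± 0.11 (SD, n = 3) in Sox9-GFP+ p23 cells and 9.03 ± 0.24 in GFP- cells. Epcam, a marker of epithelium, was 11.92 ± 0.08 and 10.38 ± 0.16 in the same groups. Neurog3 did not set the e15.5 sorts apart, at 11.83 ± 0.35 in Ngn3-GFP+ and 11.87 ± 0.23 in Sox9-GFP+ cells. Krt19 and Epcam also overlapped between these sorts. Sox9 did not overlap, at 10.82 ± 0.60 in Ngn3-GFP+ and 12.12 ± 0.02 in Sox9-GFP+ cells of e15.5. The summed intensity of 13 endocrine genes was 80207 to 92229 in Ngn3-GFP+ arrays and 38050 to 57874 in Sox9-GFP+ arrays of that age. The GFP- sort carried a strong leukocyte signal. Ptprc (CD45), the defining surface protein of leukocytes, was 14.28, 14.41 and 14.64 there, against 8.12, 10.64 and 10.09 in Sox9-GFP+ p23 cells and between 6.49 and 7.19 in the embryonic arrays. The summed intensity of 10 pan-leukocyte genes was 58081 to 84815 in GFP- arrays, 1656 to 4697 in Sox9-GFP+ p23 arrays, 872 to 883 in Sox9-GFP+ e15.5 arrays and 931 to 1278 in Ngn3-GFP+ arrays. Signals of other cell types also differed between the groups. The summed intensity of 12 acinar genes was 22957 to 38229 in the Sox9 sort of e15.5, 89737 to 102488 in that of p23 and 115065 to 123311 in GFP- cells. That of 8 mesothelial genes, which include Krt19, was 1517 to 2234, 5018 to 5917 and 1884 to 1988 in the same groups. Krt19 alone had an intensity of 754.3 to 1224, 3558 to 4135 and 425.6 to 595.3 there. The duct keratin thus made up most of the mesothelial sum in Sox9-GFP+ p23 cells. The part of leukocyte, acinar or mesothelial RNA in the differences at p23 was not tested. The embryonic globin Hbb-y, a gene of red cell precursors, was high in 3 embryonic arrays, at 10.48 and 11.20 in e10.5 replicates 1 and 2 and at 9.98 in Sox9-GFP+ e15.5 replicate 1, and at most 6.35 elsewhere. Calls of the defence genes that were lost without these arrays are given both ways, as are those lost without the 2 Sox9-GFP+ p23 arrays of high Ptprc, replicates 2 and 3. Either removal leaves 1 array in a group, e10.5 or Sox9-GFP+ p23, whose spread is then taken from the other groups.

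**Figure D1:**
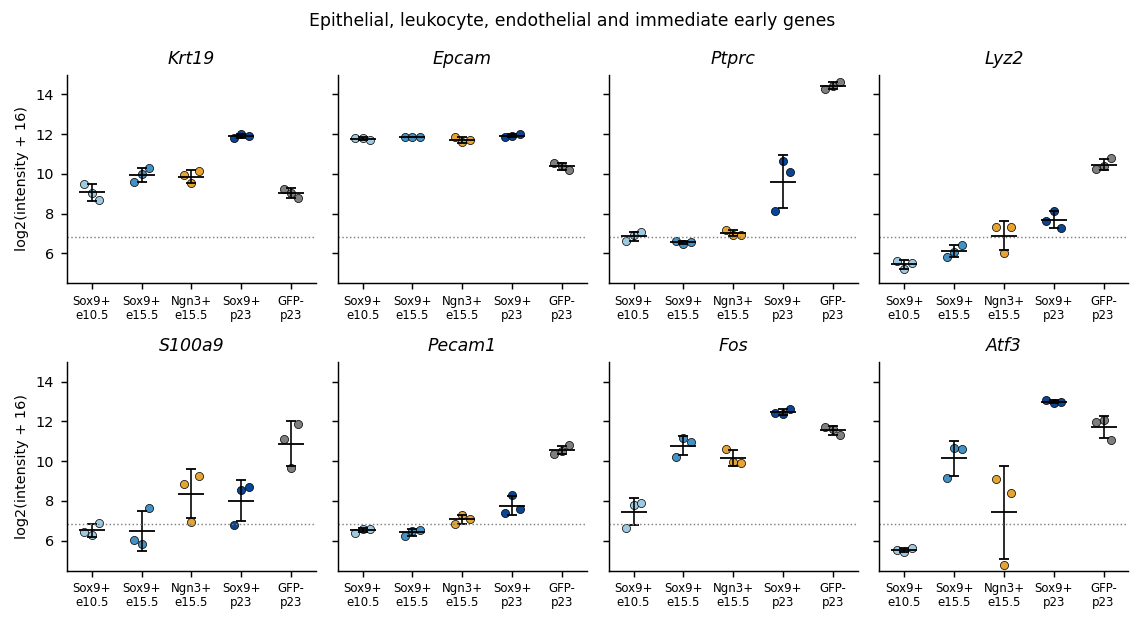
Levels of 8 marker genes in the 15 arrays, as log2(intensity + 16), by group. Points are arrays, bars are mean ± SD of 3 arrays and the dotted line is the filter at 6.83. Krt19 is highest in Sox9-GFP+ p23 cells, whereas Ptprc, Lyz2, S100a9 and Pecam1 are highest in GFP- p23 cells.

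In Sox9-GFP+ cells all 7 measured genes were higher at p23 than at e15.5, in a comparison in which 30.7% of all tested genes were higher and 26.8% lower. Of them, Tlr4, Cd14, Lcn2 and Pigr rose between 11.7-fold and 22.3-fold, and Tlr2, Tlr3 and Cfb rose between 1.46-fold and 1.66-fold. Between e10.5 and e15.5, Cd14, Tlr2 and Tlr3 had already risen and Cfb had fallen, so 3 genes were higher and 1 lower. The background for that earlier step was 12.2% of tested genes higher and 16% lower. The median difference over all genes was 0.05 at the later step and -0.05 at the earlier one.

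**Figure D2:**
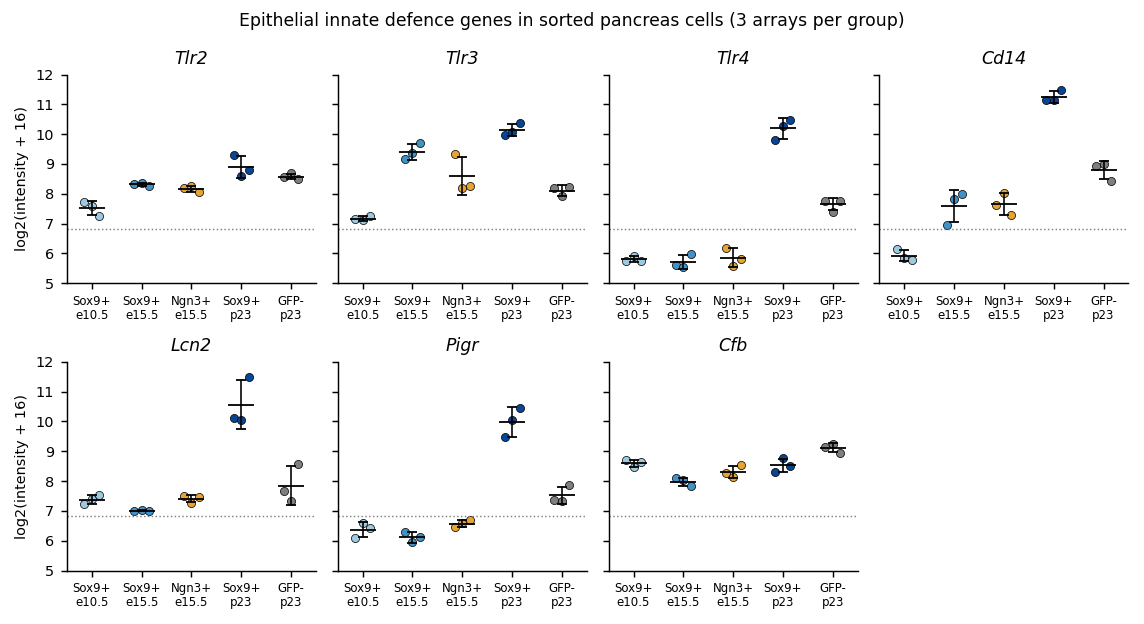
Levels of the 7 measured genes in the 15 arrays, as log2(intensity + 16), by group. Points are arrays, bars are mean ± SD of 3 arrays and the dotted line is the filter at 6.83. All but Cfb have their highest group mean in Sox9-GFP+ p23 cells.

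Tlr4, the lipopolysaccharide receptor, was dim in every embryonic array. The Sox9 sort read 5.75, 5.92 and 5.75 at e10.5 and 5.61, 5.54 and 5.97 at e15.5, followed by 6.19, 5.57 and 5.82 in the Ngn3 sort, 9.81, 10.27 and 10.48 in the Sox9 sort at p23, and 7.77, 7.40 and 7.77 in GFP- cells. The Sox9-GFP+ p23 arrays lay above all others, the GFP- arrays came next, and the 9 embryonic arrays lay below the filter and overlapped. The rise from e15.5 to p23 was 4.48 ± 0.19 (SE), or 22.3-fold, with an adjusted p of 8.7e-10. In a sorted population more expressing cells and more RNA per cell cannot be told apart, here and in all results below. In the replicate of lowest Ptprc, the first, Tlr4 was 9.81, and without the other 2 arrays the rise was 4.10 (adjusted p = 4.59e-07).

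Cd14, which presents lipopolysaccharide to Tlr4 and Ly96, rose at both steps. Its levels were 6.14, 5.86 and 5.79 at e10.5, 6.97, 7.82 and 7.98 at e15.5, and 11.13, 11.13 and 11.48 at p23 in Sox9-GFP+ cells. Ngn3-GFP+ cells read 7.61, 8.03 and 7.30, and GFP- cells 8.93, 8.99 and 8.44. The 3 ages of the Sox9 sort did not overlap, and the e15.5 sorts overlapped each other. Cd14 rose by 1.66 ± 0.25 from e10.5 to e15.5 (adjusted p = 0.000431) and by 3.65 ± 0.25 from e15.5 to p23 (adjusted p = 7.12e-08). The later rise exceeded the earlier one by 1.99 ± 0.43 (adjusted p = 0.00338), a difference that missed the threshold without the 3 arrays of high embryonic globin Hbb-y (1.23, adjusted p = 0.0555).

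Tlr3, the sensor of double-stranded RNA, rose from e10.5 to e15.5 and, by less, from e15.5 to p23. Sox9-GFP+ cells read 7.15, 7.12 and 7.25 at e10.5, 9.18, 9.36 and 9.69 at e15.5, and 9.97, 10.08 and 10.37 at p23. Ngn3-GFP+ cells read 9.34, 8.18 and 8.27, and GFP- cells 8.20, 7.91 and 8.23. The 3 ages were apart, and the first Ngn3-GFP+ array lay among the Sox9-GFP+ arrays of its age. Tlr3 rose by 2.24 ± 0.25 to e15.5 (4.72-fold, adjusted p = 2.72e-05). The later rise, 0.73 ± 0.25 (adjusted p = 0.0211), was smaller than the earlier one by 1.51 ± 0.42 (difference -1.51, adjusted p = 0.0114). This difference between steps was lost with quantile normalization (-1.13, adjusted p = 0.0583), without Sox9-GFP+ e15.5 replicate 3 (-1.23, adjusted p = 0.0704) and without the 3 arrays of high Hbb-y (-1.67, adjusted p = 0.0502). The later rise itself rested on few arrays: it missed the threshold without the 2 p23 arrays of high Ptprc (0.56, adjusted p = 0.217), without the arrays of high Hbb-y (0.61, adjusted p = 0.114), or without e15.5 replicate 1, e15.5 replicate 2 or p23 replicate 3 (0.61 to 0.70, adjusted p 0.0571 to 0.0793).

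Tlr2, the lipopeptide receptor, rose in smaller steps. Levels were 7.72, 7.58 and 7.26 at e10.5, 8.32, 8.37 and 8.27 at e15.5, and 9.30, 8.61 and 8.79 at p23 in Sox9-GFP+ cells. They were 8.19, 8.26 and 8.07 in Ngn3-GFP+ cells and 8.57, 8.69 and 8.50 in GFP- cells. Tlr2 therefore stood above the filter in all 15 arrays, with p23 Sox9-GFP+ and GFP- arrays overlapping at the top. The rises were 0.80 ± 0.16 (adjusted p = 0.00353) and 0.58 ± 0.16 (adjusted p = 0.0076), and they did not differ by more than the error (-0.21 ± 0.28, adjusted p = 0.538, 95% interval -0.81 to 0.38). The highest p23 array was the replicate of lowest Ptprc, at 9.30.

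Lcn2, the siderophore-binding protein, was near the filter in the embryonic arrays. Sox9-GFP+ cells read 7.23, 7.39 and 7.53 at e10.5, 7.01, 7.02 and 7.01 at e15.5, and 10.11, 10.06 and 11.50 at p23. Ngn3-GFP+ cells read 7.51, 7.28 and 7.45, and GFP- cells 7.67, 7.33 and 8.56. The p23 Sox9-GFP+ arrays lay above all others, and the third replicate was the highest in both p23 sorts. The rise from e15.5 to p23 was 3.55 ± 0.33 (11.7-fold, adjusted p = 1.76e-06), and the earlier difference of -0.37 ± 0.33 was not called (adjusted p = 0.409). Lcn2 is also a protein of neutrophil granules. The neutrophil genes S100a8 and S100a9 were highest in the third GFP- replicate, at 11.27 and 11.89, where Lcn2 was 8.56. In the Sox9-GFP+ p23 arrays, where Lcn2 was 10.06 or more, S100a8 was 6.67, 7.20 and 6.70 and S100a9 6.81, 8.53 and 8.69. The summed intensity of 14 neutrophil genes was 898 to 1080 in Sox9-GFP+ e15.5 cells, 1335 to 2193 in Ngn3-GFP+ cells, 1447 to 1746 in Sox9-GFP+ p23 cells and 1976 to 9972 in GFP- cells. The part of neutrophil RNA in the Lcn2 levels was not tested.

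Pigr, the IgA transporter, had the same course. It read 6.09, 6.61 and 6.42 at e10.5, 6.30, 5.95 and 6.11 at e15.5, and 9.47, 10.05 and 10.46 at p23 in Sox9-GFP+ cells. Ngn3-GFP+ cells read 6.45, 6.58 and 6.68, and GFP- cells 7.38, 7.34 and 7.86. All 9 embryonic arrays were below the filter and both p23 sorts above it, without overlap between those sorts. The rise to p23 was 3.87 ± 0.22 (14.7-fold, adjusted p = 1.19e-08) and the earlier difference was -0.25 ± 0.22 (adjusted p = 0.397). Without the 2 arrays of high Ptprc the rises of Pigr and Lcn2 were 3.34 and 3.10 (adjusted p = 1.78e-06 and 4.46e-05).

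Cfb, factor B of the alternative complement pathway, took another course. Sox9-GFP+ cells read 8.70, 8.47 and 8.63 at e10.5, 8.10, 8.02 and 7.83 at e15.5, and 8.32, 8.76 and 8.52 at p23. Ngn3-GFP+ cells read 8.28, 8.14 and 8.53, and GFP- cells 9.15, 9.25 and 8.94. Its level was thus lowest at e15.5, overlapped the e10.5 arrays again at p23 and was highest in the GFP- sort. Cfb fell by 0.62 ± 0.14 to e15.5 (difference -0.62, adjusted p = 0.00796) and rose by 0.55 ± 0.14 to p23 (adjusted p = 0.00555). Neither step was called in every setting: the fall had an adjusted p of 0.0578 without the arrays of high Hbb-y, and the rise one of 0.159, at 0.34, without those of high Ptprc.

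From e10.5 to p23, 6 of the 7 genes were higher and none lower, where 17.7% of all tested genes were higher and 23.3% lower. The exception was Cfb, at -0.07 ± 0.14 (adjusted p = 0.742, 95% interval -0.38 to 0.24). Over this span Cd14 had a difference of 5.31, Tlr4 of 4.38, Pigr of 3.62, Lcn2 of 3.17, Tlr3 of 2.97 and Tlr2 of 1.38. The e10.5 levels of Cd14 and the embryonic levels of Tlr4 and Pigr were below the filter in every array, so the size of their rises is poorly bounded. The later step was larger than the earlier one for Tlr4, Pigr, Lcn2, Cd14 and Cfb, and smaller for Tlr3, where the Cd14 and Tlr3 calls were lost in the settings given above. Over all tested genes this difference between steps was higher for 26.8% and lower for 21%.

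At p23, 5 of the 7 genes were higher in Sox9-GFP+ than in GFP- cells and 1, Cfb, was lower. The background was 21.5% of tested genes higher and 14.5% lower. Lcn2 differed by 2.70 ± 0.33 (6.51-fold, adjusted p = 1.53e-05), Tlr4 by 2.53 ± 0.19 (adjusted p = 1.06e-07) and Pigr by 2.47 ± 0.22 (adjusted p = 6.29e-07). Cd14 differed by 2.45 ± 0.25 (adjusted p = 2.39e-06) and Tlr3 by 2.03 ± 0.25 (adjusted p = 1.27e-05). Each of these 5 genes had its 3 Sox9-GFP+ arrays above all 3 GFP- arrays, and the groups were apart in this way, in either direction, for 47.3% of all tested genes. Cfb was lower by 0.59 ± 0.14 (difference -0.59, adjusted p = 0.00483). Tlr2 was not called (0.32 ± 0.16, adjusted p = 0.148, 95% interval -0.03 to 0.66), but it was called higher without Sox9-GFP+ p23 replicate 2 (0.46, adjusted p = 0.0491). Its difference was 0.71 without both arrays of high Ptprc, which leaves 1 Sox9-GFP+ array.

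The leukocyte lists other than the neutrophil one ran in the opposite direction in this contrast, in which 14.5% of all tested genes were lower. Of 10 pan-leukocyte genes 10 were lower in Sox9-GFP+ cells, with a median difference of -4.45. So were 13 of 13 lymphocyte genes (median -4.63) and 11 of 16 macrophage and monocyte genes (median -1.05). Of 11 neutrophil genes 2 were lower (median -0.18), near the share over all tested genes. None of these 50 genes was higher, while the median over all genes was 0.07. Cfb, Tlr1, Tlr6, Tlr7 and Tlr9 were lower in Sox9-GFP+ cells, as the leukocyte lists other than the neutrophil one were. Cd14, Tlr4, Lcn2, Pigr and Tlr3 were higher. The part of leukocyte RNA in either set of differences was not tested.

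At e15.5 the measured genes hardly distinguished the sorts. Tlr3 was lower in Ngn3-GFP+ than in Sox9-GFP+ cells by 0.81 ± 0.25 (difference -0.81, adjusted p = 0.019), where 18.4% of tested genes were lower and 23.3% higher. The other 6 genes were not called, with differences from -0.15 for Tlr2 to 0.45 for Pigr. The 95% intervals reached from -0.31 to 1.11 for Lcn2, from -0.48 to 0.59 for Cd14 and from -0.26 to 0.57 for Tlr4. The Tlr3 call rested on few arrays, since it was lost with quantile normalization (-0.59, adjusted p = 0.0886), with only these groups in the fit (adjusted p = 0.0875), or without Sox9-GFP+ replicate 3, Ngn3-GFP+ replicate 2 or Ngn3-GFP+ replicate 3 (adjusted p 0.0635 to 0.0832).

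**Figure D3:**
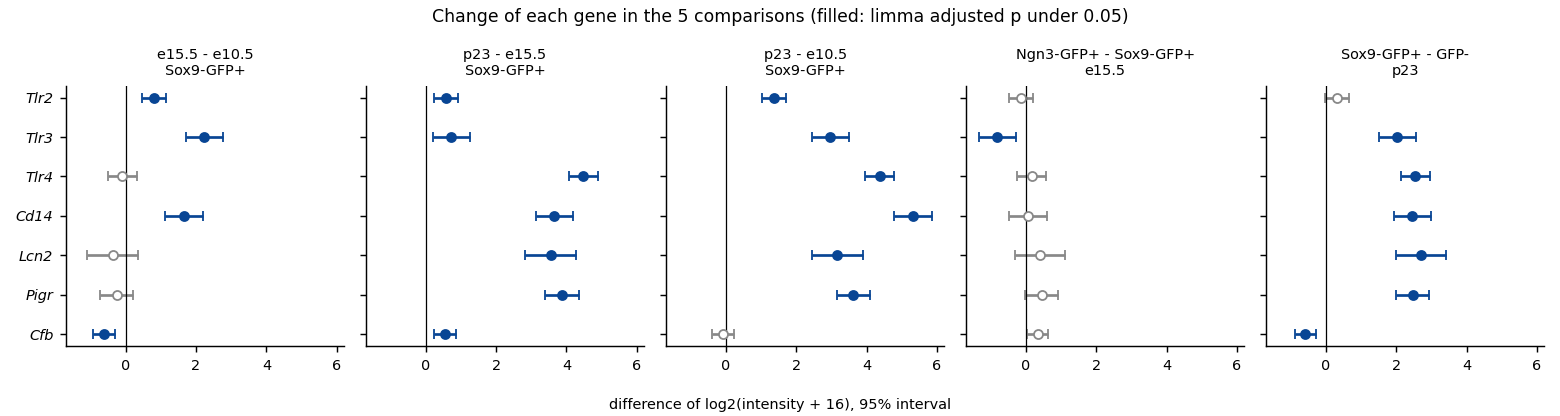
Difference of log2(intensity + 16) for the 7 measured genes in each of the 5 group comparisons, with 95% intervals. Filled points have a limma adjusted p under 0.05, and the vertical line marks no difference. At p23 against e15.5 all 7 points are filled and to the right, and in the Ngn3-GFP+ comparison Tlr3 alone is filled.

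The difference of the Sox9 sort minus the other sort was higher at p23 than at e15.5 for 5 genes. Of these, Tlr3 alone was called higher in the Sox9 sort at e15.5. The extra differences at p23 were 3.10 ± 0.47 for Lcn2, 2.92 ± 0.31 for Pigr, 2.69 ± 0.27 for Tlr4, 2.51 ± 0.35 for Cd14 and 1.21 ± 0.35 for Tlr3. Their adjusted p-values ran from 4.67e-06 to 0.0125, and 27.1% of all tested genes were higher and 18.3% lower in this interaction, whose median over all genes was 0.18. Tlr2 (0.17, 95% interval -0.32 to 0.66) and Cfb (-0.25, 95% interval -0.69 to 0.18) were not called. The comparison sort was the Ngn3 sort at the embryonic age and the GFP- sort after birth, so age and the kind of comparison sort cannot be told apart here. The Tlr3 call was lost without the arrays of high Ptprc (1.04, adjusted p = 0.0786) or of high Hbb-y (adjusted p = 0.053).

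The partners of these receptors did not all follow them. Of 8 tested Toll-like receptor genes, Tlr4, Tlr1, Tlr3, Tlr2 and Tlr12 were higher at p23 than at e15.5 and none was lower, with a list median of 0.53. Without the 2 arrays of high Ptprc, which leaves 1 Sox9-GFP+ p23 array, the differences of Tlr4, Tlr3 and Tlr2 were 4.10, 0.56 and 0.98. In Sox9-GFP+ against GFP- cells at p23, Tlr4 and Tlr3 were higher and Tlr7, Tlr1, Tlr6 and Tlr9 lower. Over all tested genes 30.7% were higher and 26.8% lower with age, and 21.5% and 14.5% against GFP- cells. Tlr1, which pairs with Tlr2, read 7.67, 7.80 and 8.26 in Sox9-GFP+ arrays and had a mean of 10.49 ± 0.51 in GFP- arrays, of which the lowest was 9.99 (difference -2.58 ± 0.30, adjusted p = 7.82e-06). Tlr7, a sensor of single-stranded RNA, was below the filter in all Sox9-GFP+ arrays at each age and read 7.18, 8.65 and 9.69 in GFP- arrays. Tlr5 was not analysed here.

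Of 9 co-receptor and chaperone genes, Cd14, Cd36, Cd180 and Ly86 were higher at p23 than at e15.5, where 30.7% of all tested genes were higher. Ly86 was below the filter in every array of both groups and passed it through the GFP- arrays alone. Among the Sox9-GFP+ p23 arrays, Cd36, Cd180 and Ly86 were highest in replicate 2, the one of highest Ptprc, and Cd14 was highest in replicate 3. Ly96, without which Tlr4 does not respond to lipopolysaccharide, stayed above the filter at both ages, at 7.40, 7.57 and 7.77 at e15.5 and 7.38, 7.53 and 7.76 at p23. Its difference was -0.03 ± 0.44 (adjusted p = 0.963, 95% interval -0.96 to 0.91), in contrast to the 4.48 of Tlr4. Lbp, the lipopolysaccharide-binding protein, read 8.76, 10.03 and 10.69 at e15.5, 10.72, 10.28 and 11.36 at p23, and 7.88, 8.28 and 6.68 in GFP- cells. Lbp rose by 1.76 ± 0.48 from e10.5 to e15.5 (adjusted p = 0.0181) and exceeded GFP- cells at p23 by 3.17 ± 0.48 (adjusted p = 0.000107), and its later difference of 0.96 was not called (adjusted p = 0.0987). Cd180 and Ly86, which form a receptor complex of B cells, were lower in Sox9-GFP+ than GFP- cells by more than any other gene of the list (-5.60 ± 0.19 and -5.58 ± 0.21).

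The adaptors and kinases moved little as a list. Of 16 tested, 3 were higher and 3 lower at p23 than at e15.5, with a median of -0.03. The shares over all tested genes were 30.7% higher and 26.8% lower. Myd88, the adaptor of Tlr2 and Tlr4, read 7.26, 6.72 and 6.08 at e10.5 and 8.01, 8.36 and 8.45 at e15.5. It rose by 1.58 ± 0.24 at that step (adjusted p = 0.000412), and the next difference of 0.36 ± 0.24 was not called. Ticam1, the adaptor of Tlr3 and Tlr4, rose at both steps, by 0.42 ± 0.13 and 0.39 ± 0.13 (adjusted p = 0.0304 and 0.0205). The differences of Tirap and Ticam2 were not called at either step.

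**Figure D4:**
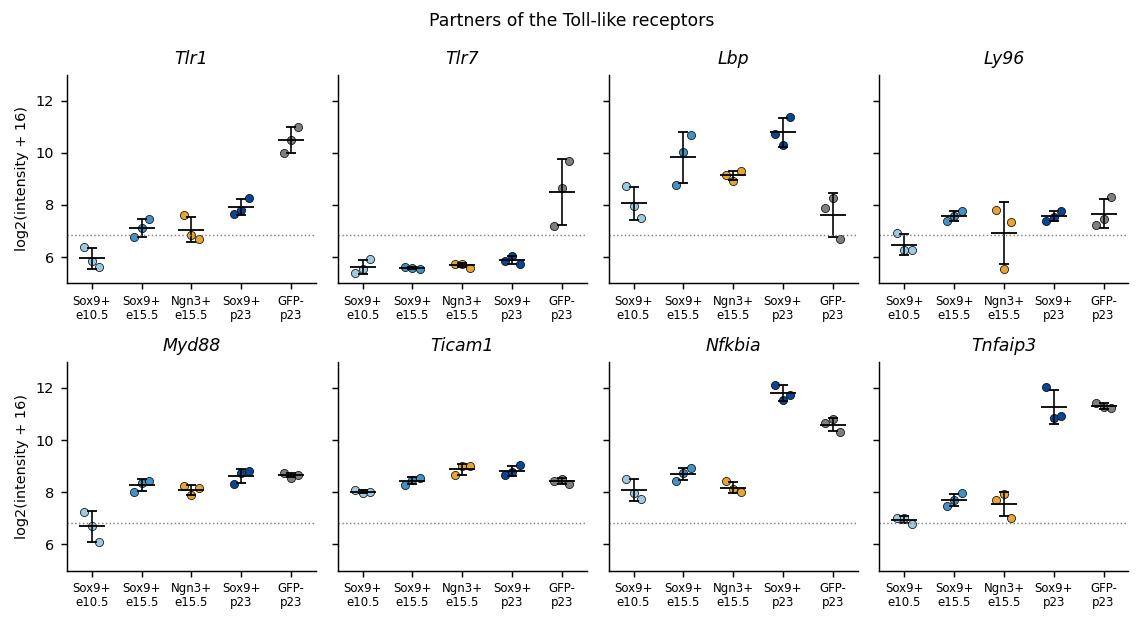
Levels of 8 genes of Toll-like receptor signalling in the 15 arrays, as log2(intensity + 16), by group. Points are arrays, bars are mean ± SD of 3 arrays and the dotted line is the filter at 6.83. Tlr1 and Tlr7 are highest in GFP- p23 cells, Nfkbia in Sox9-GFP+ p23 cells, and Ly96 is at about 7.6 in both Sox9-GFP+ e15.5 and p23 cells.

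The genes of NF-kB and its inhibitors rose together at p23. Of 13 tested, 11 were higher than at e15.5 and none lower, where 30.7% of all tested genes were higher and 26.8% lower. The median difference was 1.91, against 0.05 for all genes. Nfkbie, Tnfaip3 and Nfkbia, which restrain NF-kB and are themselves its targets, rose by 3.63 ± 0.28, 3.56 ± 0.28 and 3.11 ± 0.22 (adjusted p = 2.52e-07, 2.57e-07 and 8.8e-08). Rela, an activating subunit, rose by 1.93 ± 0.19 (adjusted p = 2.62e-06) and was higher in Sox9-GFP+ than GFP- cells by 1.66 ± 0.19 (adjusted p = 7.14e-06). Rel, the subunit typical of lymphoid cells, rose by 2.79 ± 0.26 with age but was lower than in GFP- cells, at -2.13 ± 0.26 (adjusted p = 1.44e-05). Against GFP- cells, 7 of the 13 genes were higher and 2 lower, where 21.5% of all tested genes were higher and 14.5% lower.

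Genes of immediate early and stress responses moved with the same contrasts. A list of 17 such genes, compiled after the data had been seen, had 14 higher at e15.5 than at e10.5, 16 higher at p23 than at e15.5 and none lower in either. Of them, 10 were lower and none higher in Ngn3-GFP+ than Sox9-GFP+ cells, and 9 were higher and 1 lower in Sox9-GFP+ than GFP- cells at p23. Over all tested genes 12.2% were higher at the earlier step and 30.7% at the later one. In the sort comparisons 18.4% of all tested genes were lower in Ngn3-GFP+ cells and 21.5% higher against GFP- cells. Fos read 6.66, 7.82 and 7.89 at e10.5, 10.22, 11.15 and 10.99 at e15.5, and 12.41, 12.39 and 12.63 at p23 in Sox9-GFP+ cells. Their summed intensity was 5377 to 6345, 16177 to 28847 and 78590 to 91981 at the 3 ages, and 44333 to 58564 in GFP- cells. The part of this response in the rises of Cd14, Tlr2, Tlr3, Tlr4, Lcn2, Pigr and the NF-kB genes was not tested.

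The count of complement components that rose depended on the processing. Of 18 tested components 13 were higher at p23 than at e15.5 and 1, C1qa, was lower, with a median of 0.46, where 30.7% of all tested genes were higher. The count of higher genes was 4 of 18 with quantile normalization, under which 3973 of all 16883 tested genes were higher. Without the arrays of high Ptprc, which leaves 1 Sox9-GFP+ p23 array, the difference of Cfb, a component on this list, was 0.34. C1ra, a protease of the classical pathway, rose by 0.92 ± 0.12 (adjusted p = 3.93e-05), C4b by 0.69 ± 0.24 (adjusted p = 0.0241) and C2, the classical-pathway counterpart of factor B, by 0.33 ± 0.11 (adjusted p = 0.017). Against GFP- cells 2 of the 18 components were higher and 4 lower, where 21.5% of all tested genes were higher and 14.5% lower. C5 and Cfd were not analysed here.

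Among 13 regulators and receptors of complement, 4 were higher and 3 lower at p23 than at e15.5, near the 30.7% and 26.8% of all tested genes. Cfi, factor I, which cleaves C3b, read 6.87, 7.17 and 6.95 at e10.5, 10.07, 10.29 and 10.44 at e15.5, 8.60, 8.98 and 9.63 at p23, and 5.98 to 6.02 in GFP- cells. It rose by 3.27 ± 0.28 to e15.5 (adjusted p = 2.87e-06), fell by 1.20 ± 0.28 to p23 (difference -1.20, adjusted p = 0.00285), and exceeded GFP- cells by 3.07 ± 0.28 (adjusted p = 7.44e-07). At those same steps Cfb had fallen and risen. Cd55, which speeds the decay of C3 convertases on cell surfaces, was higher in GFP- cells, at 10.48, 10.92 and 11.19 against 7.62, 8.17 and 7.41 (difference -3.13 ± 0.22, adjusted p = 5.4e-08), as was the receptor C3ar1 (-1.94 ± 0.30, adjusted p = 0.000128).

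Lcn2 and Pigr belonged to a wider set of mucosal defence genes. Of 29 tested, 21 were higher and 2 lower at p23 than at e15.5, with a median of 0.93, and 19 of the 27 other than Lcn2 and Pigr were higher. The largest rises were those of the secreted lectins Reg3a (7.45 ± 0.15), Reg3b (7.20 ± 0.15) and Reg3g (6.29 ± 0.24), which unlike Lcn2 and Pigr were lower in Sox9-GFP+ than in GFP- cells (Reg3a -0.99, Reg3b -0.89 and Reg3g -2.03). The summed acinar signal given above had the same order over these 3 groups, and its part in the Reg3 levels was not tested. Wfdc2, a protease inhibitor of ducts and airways, read 11.64, 11.31 and 11.38 at e15.5, 10.08, 10.66 and 10.92 at p23 and 6.60, 6.66 and 6.52 in GFP- cells. It fell by 0.89 ± 0.25 with age (difference -0.89, adjusted p = 0.00922) while exceeding GFP- cells by 3.96 ± 0.25 (adjusted p = 1.88e-08). Slpi, a related inhibitor, rose by 0.93 ± 0.19 (adjusted p = 0.00123), and the iron-binding Ltf, also a neutrophil granule protein, had an uncalled difference of 0.36 (adjusted p = 0.248). Against GFP- cells 11 of the 29 genes were higher and 6 lower. Over all tested genes 30.7% were higher and 26.8% lower with age, and 21.5% and 14.5% against GFP- cells.

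Interferon-responsive genes rose with Tlr3 and the others in part. Of 22 tested, 12 were higher and 1 lower at p23 than at e15.5 (median 0.57), among them Cxcl10 (3.48 ± 0.53, adjusted p = 0.000146), Irf1 (2.84 ± 0.26, adjusted p = 1.45e-06) and Ifit3 (2.00 ± 0.26, adjusted p = 4.02e-05). Irf7, an interferon factor downstream of Toll-like receptors, did not pass the test (-0.05 ± 0.22, adjusted p = 0.853). Against GFP- cells, 2 were higher and 13 lower, with a median of -0.66, so the list ran opposite to Tlr3 there. The shares over all tested genes were 30.7% higher and 26.8% lower with age, and 21.5% and 14.5% against GFP- cells. Ifit3 read 8.40, 9.34 and 8.55 in Sox9-GFP+ and 12.20, 12.98 and 13.23 in GFP- arrays at p23.

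**Figure D5:**
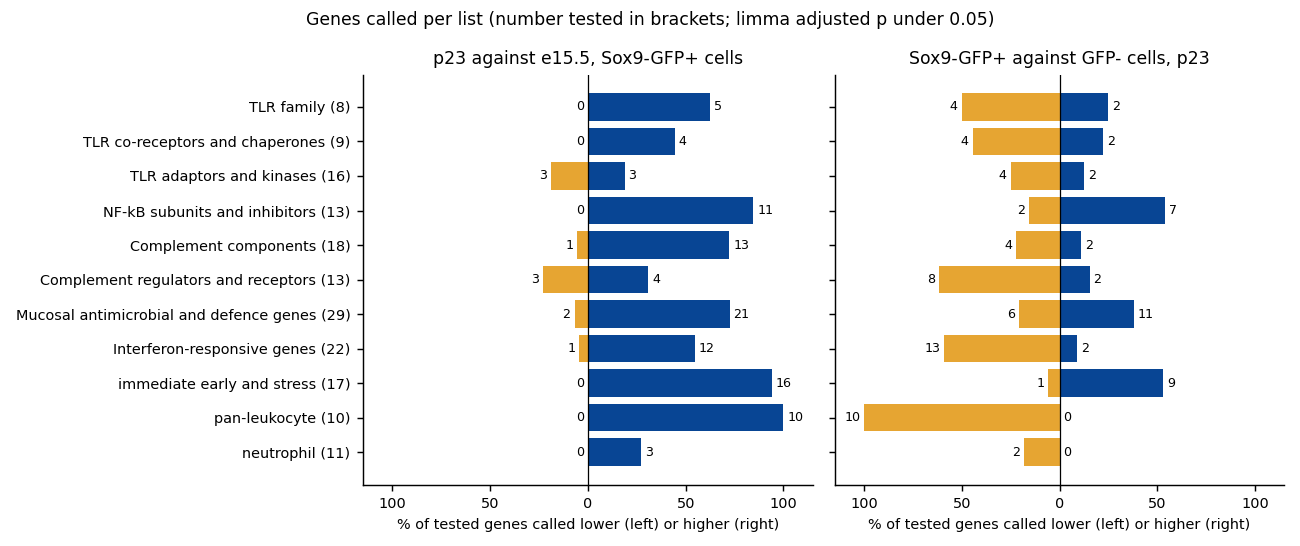
Share of the tested genes of each list that were lower (left) or higher (right) at a limma adjusted p under 0.05, for p23 against e15.5 in Sox9-GFP+ cells and for Sox9-GFP+ against GFP- cells at p23. Numbers beside the bars are gene counts. In the left panel 11 of 13 NF-kB genes and 10 of 10 pan-leukocyte genes are higher, and in the right panel the pan-leukocyte genes are all lower while 7 NF-kB genes are higher.

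Pearson's r across the 15 arrays was 0.98 between Pigr and Tlr4, 0.97 between Lcn2 and Pigr, 0.94 between Lcn2 and Tlr4 and 0.92 between Cd14 and Tlr4. It was 0.89 between Cd14 and Pigr and between Cd14 and Tlr2, and 0.83 between Cd14 and Lcn2. Tlr2 had r between 0.59 and 0.72 with Lcn2, Pigr and Tlr4. Tlr3 had r between 0.58 and 0.76 with Lcn2, Cd14, Pigr, Tlr2 and Tlr4, and Cfb had r between -0.41 and 0.36 with the other 6. These values describe 15 arrays that share 5 group means, and they carry no p. Tested genes were compared if they varied by an SD of at least 0.5 over the arrays and had no clone or predicted name (4827 genes). Among them, those most like Pigr were Tlr4, the cytokine Il7 (r = 0.980) and Obp2b, a lipocalin like Lcn2 (r = 0.978). Il7 and Obp2b were above the filter in the Sox9-GFP+ p23 arrays alone. Obp2b and Il7 were also the closest to Lcn2, at 0.978 and 0.972. Obp2b was below the filter in the embryonic arrays and read 9.24, 9.45 and 10.36 in Sox9-GFP+ p23 cells and 6.46, 6.40 and 6.62 in GFP- cells, with its highest value in the same replicate as Lcn2.

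The closest genes to Tlr4 were Efhd1 (0.983), Pigr (0.982) and Cd44, the hyaluronan receptor (0.980), and to Cd14 Cav2 (0.980), the immediate early phosphatase Dusp1 (0.979) and Serpinb6b (0.978). Tlr3 was closest to the epithelial integrin Itgb6 (0.982), Ngef (0.980) and Lurap1l (0.968). Itgb6 read 5.61, 5.63 and 5.92 at e10.5, 8.54, 8.75 and 8.88 at e15.5 and 9.73 in all 3 arrays at p23, an early rise like that of Tlr3. Tlr2 was closest to Cish (0.947), Ier3 (0.946) and Hspb8 (0.945). Cfb had no close match, the nearest being Plac8 (0.912), Itgb3 (0.888) and Ctla2b (0.885). Plac8 read 11.13, 11.48 and 11.84 in GFP- cells, its highest group as for Cfb.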

How the data were processed

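RNA of sorted cells was amplified from poly(A) RNA and hybridised to Affymetrix mouse gene arrays, per the labels' protocols. Per the submitters' processing notes, the authors used Affymetrix Expression Console 1.1 and PLIER, and the deposited values are linear intensity per probe set. A normalization between arrays was not given in the sources used here. Array medians lay between 165.5 and 211.7, no 2 arrays were identical, and the number of arrays limits the precision.

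Probe sets with 1 gene symbol were used (21789 of 35557, while 1621 named several genes and 12147 none), and the one with the highest mean stood for a gene. The measured defence genes had 1 probe set each. Values were taken as log2(intensity + 16), which understates changes of dim genes. A gene was tested where 3 or more arrays exceeded 97.8, the 30th percentile. All 15 arrays entered 1 fit in limma 3.58.1 (R 4.3.3), with a mean per group, contrasts and Benjamini-Hochberg adjustment per contrast over 16883 genes. Adjusted p-values are from this fit, called at 0.05. The fit was tested on simulated data. With 3 against 3 arrays an exact permutation test cannot go below 0.1 and was not used.

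The genes, the pathway and marker lists and the genes named from them were chosen with earlier results of these data known. From each list, genes on a fixed list and those with the largest changes were named. Most-like genes are the 3 of highest Pearson's r, with clone and predicted names skipped. Alternatives were other offsets (1 and 64), quantile normalization, median centring, other filters, averaged probe sets, only the groups compared, another variance model, a replicate block and each array left out in turn. Leaving out arrays of high Ptprc or Hbb-y was added after seeing the data.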

Additional observations from a re-analysis of the deposited data

Results flagged for a closer look

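For 5 genes the difference between the Sox9 sort and the other sort was not the same at p23 and at e15.5, by the interaction term of the same limma fit. The extra difference at p23 was 3.10 for Lcn2 (adjusted p = 0.000184), 2.51 for Cd14 (adjusted p = 9.8e-05), 2.92 for Pigr (adjusted p = 8.03e-06), 1.21 for Tlr3 (adjusted p = 0.0125) and 2.69 for Tlr4 (adjusted p = 4.67e-06). For Lcn2, Cd14, Pigr and Tlr4 the difference from Ngn3-GFP+ cells at e15.5 was not called, while the difference from GFP- cells at p23 was. All 3 Sox9-GFP+ arrays lay above all 3 GFP- arrays at p23 for each of the 5 genes. The groups were apart, in either direction, for 47.3% of all tested genes. In the interaction 27.1% of all tested genes were higher and 18.3% lower. The other sort was Ngn3-GFP+ at e15.5 and GFP- at p23, so age and the kind of comparison sort cannot be told apart.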

How the results depend on the processing

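The 49 differences reported for the measured defence genes were recomputed under 27 alternatives. Of the recomputed differences, 1288 kept their direction and their side of the threshold, 18 were no longer called, 6 became called and 11 changed sign, the last all among differences that were not called. Lone arrays left after removals were assumed to vary like the other groups. For Tlr4, Cd14, Lcn2 and Pigr, the rises from e15.5 to p23, and the differences from GFP- cells, were called under every alternative.

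Reversed values were Tlr4 at e15.5 against e10.5 (0.09 with quantile normalization, 0.00 without the arrays of high Hbb-y) and Cfb at p23 against e10.5 (0.04 without Sox9-GFP+ p23 replicate 1, and -0.18 to 0.04 over the left-out arrays). In Ngn3-GFP+ against Sox9-GFP+ cells they were Cd14 (-0.02 with quantile normalization, -0.25 without Sox9-GFP+ e15.5 replicate 1 and without the arrays of high Hbb-y, -0.14 without Ngn3-GFP+ replicate 2, and -0.25 to 0.25 over the left-out arrays) and Tlr4 (-0.07 with quantile normalization, -0.01 to 0.30 over the left-out arrays, the lowest without Ngn3-GFP+ replicate 1). Tlr2 reversed in the difference between steps (0.18 without the arrays of high Ptprc) and in the interaction (-0.03 to 0.31 over the left-out arrays, the lowest without Sox9-GFP+ p23 replicate 1). The count of 1 called gene in Ngn3-GFP+ against Sox9-GFP+ cells was 0 with quantile normalization and 2 with only the groups compared, where Lcn2 and Pigr were called (adjusted p = 0.027 and 0.0362) and Tlr3 was not, and 0 to 1 when arrays were left out in turn. Without Ngn3-GFP+ replicate 2 the 1 called gene was Cfb, higher at 0.42 (adjusted p = 0.0491), and Tlr3 was not called. The causes were not tested.

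Over all genes, quantile normalization moved the calls from 4754 to 2788 at e15.5 against e10.5, from 7034 to 4105 in Ngn3-GFP+ against Sox9-GFP+ cells and from 8066 to 4596 between steps, and fitting only the groups compared gave 7149 in the first. Median centring moved the share of calls that were higher from 59.6% to 44.4% in Sox9-GFP+ against GFP- cells and from 59.7% to 46.3% in the interaction, whose median moved from 0.18 to 0.05. It changed no call of a measured defence gene. A replicate block changed none either, for example 4.48 ± 0.19 for Tlr4 at p23 against e15.5 (adjusted p = 9.07e-09). Over all groups, 3 of 30 same-numbered pairs of arrays had correlated deviations above 0.1 (median r = -0.03), against 15 of 60 pairs of other numbers. These counts pool all pairs of groups, so they cannot decide whether the p23 sorts were paired by number. The embryonic signals of Tlr4 and Pigr, and that of Cd14 at e10.5, lay near the array's dim limit, so their rises from there are poorly bounded.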
